A study of Mus musculus with 20 samples.

Results

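Iron and heme handling was examined in 9 genes of the adipocyte translatome, chosen by name from the 46078 genes of the deposited count table by matching each Ensembl identifier to its symbol. They were grouped by role: uptake and release from endosomes (Trf, Tfrc, Steap4, Slc11a1), storage (Fth1, Ftl1), export (Slc40a1, Cp) and heme breakdown (Hmox1). The mRNA on adipocyte ribosomes of epididymal adipose tissue (epiAT) from male mice was sequenced after translating ribosome affinity purification (TRAP–seq). Every mouse, controls included, carried AdipoERCre, a Cre made only in cells with an active Adipoq promoter and switched on by tamoxifen, together with the NuTRAP reporter on a background labelled C576BL6 (C57BL/N in the methods of the study), and received tamoxifen before the diets began, so that GFP-tagged ribosomes mark cells that had used Adipoq at that time. In the short arm, H mice had a high-fat diet (HFD) for 12 weeks and were 18 weeks old, HC mice had the same HFD and then 8 weeks of chow for weight loss (WL) and were 26 weeks old, and C and CC_s were their chow controls of the same ages, each group holding 3 mice. The long arm had groups of 2 mice, in which HH mice had HFD for 25 weeks and were 31 weeks old, HHC mice changed to chow for another 8 weeks, until an age of 39 weeks, and CC_l and CCC were the chow controls. By the methods of the study, C and CC_l ate a low-fat chow throughout. CC_s and CCC changed from it to the standard chow of HC and HHC for the WL period.

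Cells take up most of their iron as transferrin, which binds its receptor and is drawn into endosomes, where iron is reduced and passed through the membrane. Iron that is not used is stored in ferritin or leaves the cell as ferrous iron through ferroportin. Iron is also set free when heme oxygenase cuts heme. Adipocytes need iron for their mitochondria, and macrophages of adipose tissue are known to store and recycle it.

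Iron regulatory proteins control several of these mRNAs through a hairpin, the iron-responsive element. In the 5′ UTR, a bound protein keeps ribosomes off the mRNA. In the 3′ UTR of Tfrc, it protects the mRNA from decay. The hairpins are shown because they mark genes among the 9 that may share this control. They also matter because TRAP–seq reads only mRNA on ribosomes, so that an amount of mRNA and its loading with ribosomes cannot be told apart here. A hairpin was taken as the loop CAGTGN, a stem of 5 paired bases on both sides of it, and a C before the stem, read on the transcript strand of GENCODE vM21 (GRCm38). Whether that C was unpaired was not examined. Such a hairpin stood in the 5′ UTR of 27 of 19953 genes (0.135%) and in the 3′ UTR of 125 of 20734 genes (0.603%). Among the 9 genes it was found in Fth1, Ftl1 and Slc40a1 (5′ UTR, 1 each) and in Tfrc (3′ UTR, 4 hairpins). Elements with another loop or a less regular stem are missed by this search. Capitals mark the C before the stem and the loop, and each sequence is 30 bases long, 5′ to 3′.
Fth1, 5′ UTR, chr19:9982731-9982760, + strand: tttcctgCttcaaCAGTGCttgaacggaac
Ftl1, 5′ UTR, chr7:45459779-45459808, − strand: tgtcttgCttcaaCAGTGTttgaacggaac
Slc40a1, 5′ UTR, chr1:45925465-45925494, − strand: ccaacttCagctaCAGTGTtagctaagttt
Tfrc, 3′ UTR, chr16:32631218-32631247, + strand: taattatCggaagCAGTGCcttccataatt
Tfrc, 3′ UTR, chr16:32631597-32631626, + strand: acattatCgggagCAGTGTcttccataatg
Tfrc, 3′ UTR, chr16:32631662-32631691, + strand: tctatatCggagaCAGTGAtctccatatgt
Tfrc, 3′ UTR, chr16:32631709-32631738, + strand: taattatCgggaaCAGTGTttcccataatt

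Levels are CPM (counts scaled to library size) after TMM scaling, and comparisons are log2 fold changes from edgeR's quasi-likelihood test on the counts. A gene was called changed where its nominal p was under 0.01 and its log2 fold change was at least 1 in either direction, the cut-off of the study, and the Benjamini-Hochberg (BH) adjusted p over all 21464 tested genes is given beside it. All 9 genes passed the filter on low counts. Libraries held 10710277 to 36738954 counts, so that 3 counts stood at 0.0815 to 0.251 CPM. The summed level of 6 adipocyte markers was 15924 to 120423 CPM over the 20 libraries, against 178 to 3902 CPM for 9 macrophage markers, and none of the listed markers of other cell types was at 0 in every library. CC_l replicate 1 and HC replicate 3 stood apart through spermatid mRNA (5 genes summed to 3112 and 434 CPM, at most 90.7 CPM elsewhere). Adipocyte marker sums were lowest in CCC replicate 2 (15924 CPM, against 64732 CPM in replicate 1), HC replicate 3 (16778 CPM, against 68634 and 75210 CPM in the other HC mice) and C replicates 2 and 1 (18876 and 20163 CPM, against 120423 CPM in replicate 3). CCC replicate 2 also had the highest sum of 5 mesothelial markers (309 CPM, against 75.4 CPM in replicate 1), and C replicate 1 the highest sum of 6 markers of epididymal epithelium (1818 CPM, at most 837 CPM elsewhere). In a bulk library, fewer cells of a type and less RNA per cell cannot be told apart.

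Slc11a1 was the gene with the clearest difference, 5.22-fold to 5.50-fold higher in H, HC and HH than in their chow controls. It encodes a metal transporter of late endosomes and lysosomes, best known from macrophages. Tfrc, the transferrin receptor that brings transferrin iron into the cell, was lower by 3.30-fold in H. In H, 1 of the 9 genes was called up (Slc11a1) and 1 down (Tfrc), where 3.57% of all tested genes were called up and 2.92% down. In HC and in HH, 1 of 9 was called up (Slc11a1) and 0 down, where none was lower at a nominal p under 0.05 in edgeR and DESeq2 also called 0 down. The shares over all tested genes were 1.57% up and 0.172% down in HC, and 4.91% up and 1.88% down in HH. In HHC, 0 of 9 genes were called in either direction by edgeR or DESeq2, with 1 at a nominal p under 0.05, and 0.447% of all tested genes were called up and 2.67% down. The median log2 fold change of the 9 genes was -0.28 in H, 0.67 in HC, 0.65 in HH and -0.54 in HHC. Over all tested genes it was -0.15, 0.27, -0.23 and -0.06.

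**Figure D1:**
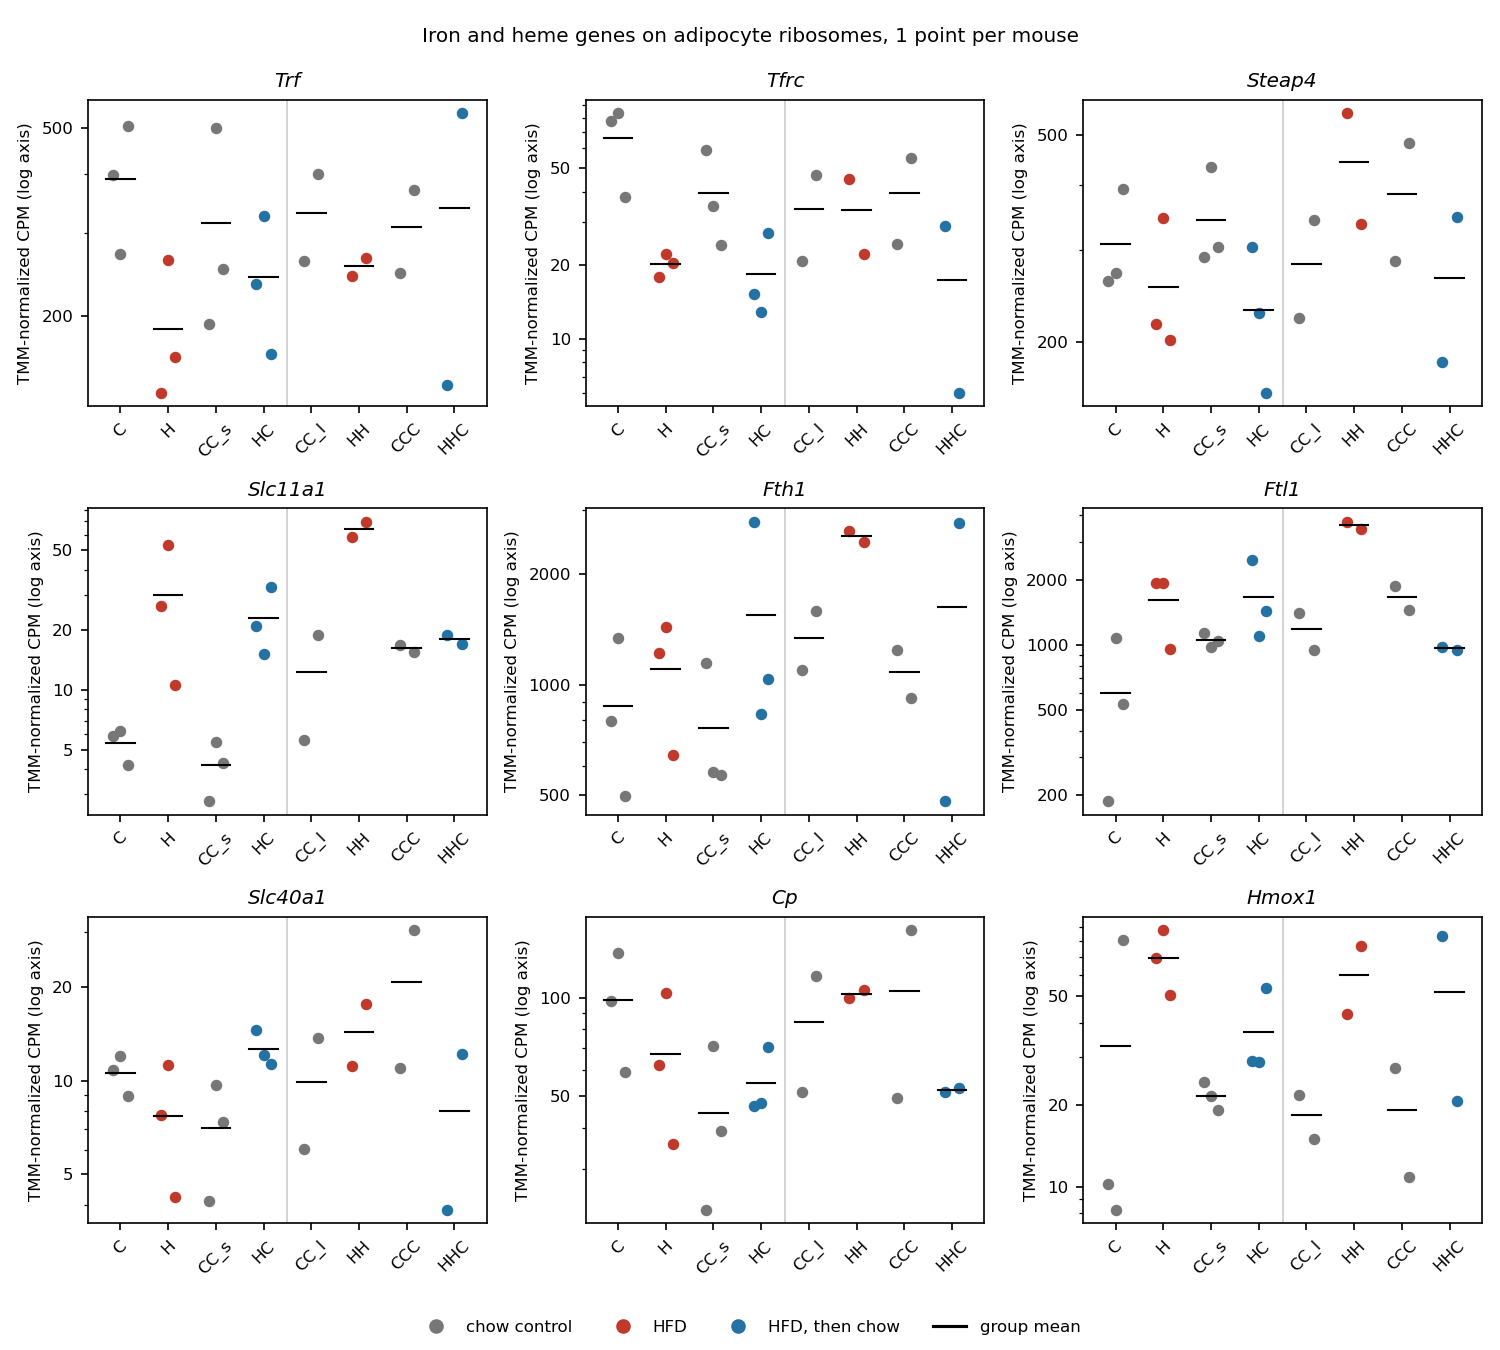
TMM-normalized CPM of the 9 genes on a log axis, with 1 point per mouse and a line at the mean of each of the 8 groups, chow controls in grey, HFD in red and HFD followed by chow in blue. Slc11a1 stood at 10.6 to 52.9 CPM in H and at 58.0 and 69.3 CPM in HH, whereas Tfrc lay between 17.9 and 22.2 CPM in H, below all C mice.

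**Figure D2:**
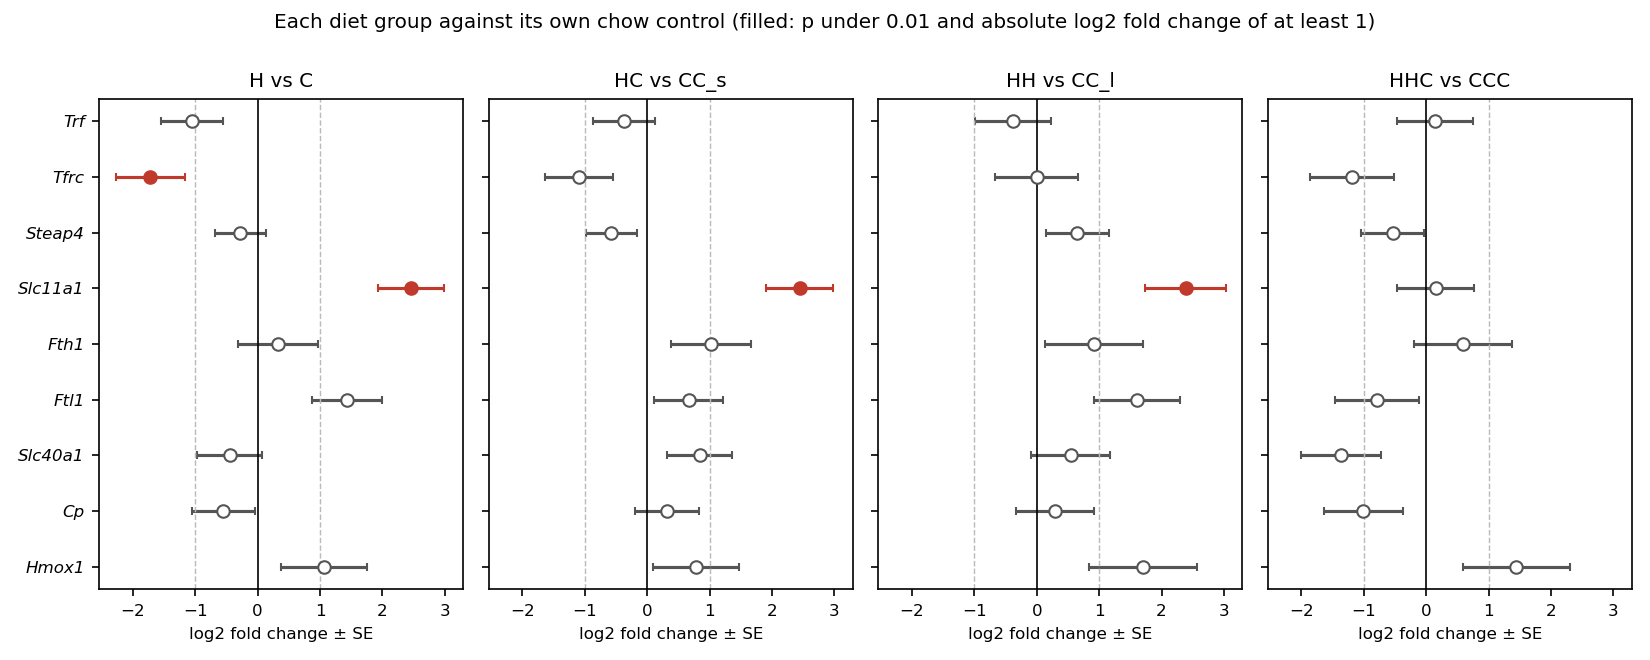
Log2 fold change with its SE for the 9 genes in each of the 4 comparisons of a diet group with its own chow control. Filled red points passed the call rule, which Slc11a1 did in 3 comparisons and Tfrc in H only, while open points did not.

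The order of levels among the 9 genes was read per length, as CPM per kilobase of annotated exon, averaged over the 20 libraries. Ferritin light chain Ftl1 was highest at 1105 ± 665 (SD) and ferritin heavy chain Fth1 next at 376 ± 220, with Ftl1 above Fth1 in 18 of 20 libraries. That gap depends on the lengths used, 1.34 kb for Ftl1 and 3.469 kb for Fth1, each covering all annotated exons. Without the lengths, the means were close, at 1480 CPM for Ftl1 and 1303 CPM for Fth1. Steap4 at 97.7 ± 32.0 and Trf at 88.4 ± 36.3 did not differ beyond their spread, since Steap4 was the higher one in 13 of 20. Hmox1 followed at 22.3 ± 15.4 and Cp at 7.75 ± 3.85. Tfrc at 5.51 ± 3.41 and Slc11a1 at 5.50 ± 5.15 were equally high on average, each above the other in 10 libraries. Slc40a1 was lowest at 1.22 ± 0.65, below Slc11a1 in 20 of 20. Between groups, 59 of the 63 neighbouring pairs in the order of a gene's group means had overlapping values. The 4 pairs that did not overlap were HH above H for Slc11a1, HHC above CCC for Slc11a1, HH above HC for Ftl1 and HH above H for Tfrc. Neighbours were found by sorting these same means, which favours overlap, and no share over all genes was computed. The pairs of HH with H or HC cross the arms, which differ in age and HFD length.

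Slc11a1 (chr1:74375195-74386062) stood at 5.88, 6.25 and 4.21 CPM in C and at 26.3, 52.9 and 10.6 CPM in H. All H mice were above all C mice, with H replicate 3 nearest to them. This was a log2 fold change of 2.46 ± 0.53 (SE; 5.50-fold, BH-adjusted p = 0.0234 in edgeR), and it was called whichever mouse was left out, at 1.76 without H replicate 2 and up to 2.86 without H replicate 3. After WL, the HC mice had 20.9, 15.1 and 32.8 CPM and the CC_s mice 2.78, 5.49 and 4.31 CPM. The groups again did not overlap, and no HC mouse was within the range of C or CC_s. Slc11a1 rose by 2.45 ± 0.53 in HC (5.45-fold, BH-adjusted p = 0.366 in edgeR), a call by the nominal p. Over 8 other settings of the analysis, the adjusted p (BH) ran from 4.81e-05 to 0.0739 in H and from 1.54e-05 to 0.740 in HC in edgeR or DESeq2 fits.

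The effect on Slc11a1 in HC did not differ detectably from that in H (difference of log2 fold changes 0.01 ± 0.74, BH-adjusted p = 1.00 by edgeR's quasi-likelihood test of the interaction). With an SE of 0.74 a difference of that size in either direction could not be detected, and the sign turned negative with DESeq2 or RLE scaling.

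In the long arm, Slc11a1 stood at 5.61 and 18.8 CPM in CC_l and at 58.0 and 69.3 CPM in HH. The 2 HH mice had the highest values of all 20 libraries. In HH, Slc11a1 rose by 2.39 ± 0.65 on the log2 scale (5.22-fold, BH-adjusted p = 0.0640 in edgeR, range over 8 other settings 0.00105 to 0.391). CC_l replicate 1, the library with the most spermatid mRNA, decided the call: without it the log2 fold change was 1.76 and did not pass, and without CC_l replicate 2 it was 3.53. After the longer HFD and WL, the HHC mice had 18.8 and 17.01 CPM and the CCC mice 16.8 and 15.5 CPM. Those groups lay next to each other without overlap, at a log2 fold change of 0.15 ± 0.62 (BH-adjusted p = 0.987 in edgeR). The CCC mice were thus close to the HHC mice and above the chow groups of the short arm, which were between 2.78 and 6.25 CPM. The difference between the HH effect and the HHC effect was 2.24 ± 0.88 and did not pass (BH-adjusted p = 0.234 in edgeR).

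General macrophage markers moved with Slc11a1. The 9 macrophage markers summed to 207 to 434 CPM in C and 565 to 3113 CPM in H, and 6 of the 9 were called up. They summed to 178 to 256 CPM in CC_s and 477 to 1701 CPM in HC, again with 6 of 9 called up. In CC_l the sums were 198 and 401 CPM, in HH 3014 and 3902 CPM, with 8 of 9 called up. In CCC they were 718 and 772 CPM and in HHC 672 and 1858 CPM, with 0 of 9 called in either direction. Of 6 lipid-associated macrophage markers (Trem2, Spp1, Gpnmb, Mmp12, Lpl and Cd9), 4 were called up in H, 3 in HC, 2 in HH and 0 in HHC. Their sum overlapped with the controls in H, HC and HHC and was higher in HH. Without Lpl and Cd9, 3, 3, 1 and 0 were called up, and the sum was higher without overlap in H, HC and HH. Of 5 perivascular macrophage markers, 1 was called up in H, 0 in HC, 3 in HH and 0 in HHC. Their sums were above all controls in H, HC and HH. Markers of neutrophils, which also make Slc11a1, summed to 1.85 to 8.95 CPM in C and 53.3 to 232 CPM in H, but in HC 1 of 3 mice (7.33 CPM) and in HH 1 of 2 (14.4 CPM) lay below their controls. The tested gene whose log2 CPM was most like Slc11a1 over the 20 libraries was Cd68, a lysosomal protein of macrophages on that marker list (Pearson r = 0.98, libraries that share depth and cell makeup). The 6 adipocyte markers had 0 calls in all 4 comparisons, and their sums overlapped between H and C. In HH the adipocyte sums were 21460 and 29507 CPM, below 48969 and 50189 CPM in CC_l. The part of macrophage mRNA in the Slc11a1 result was not tested.

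**Figure D3:**
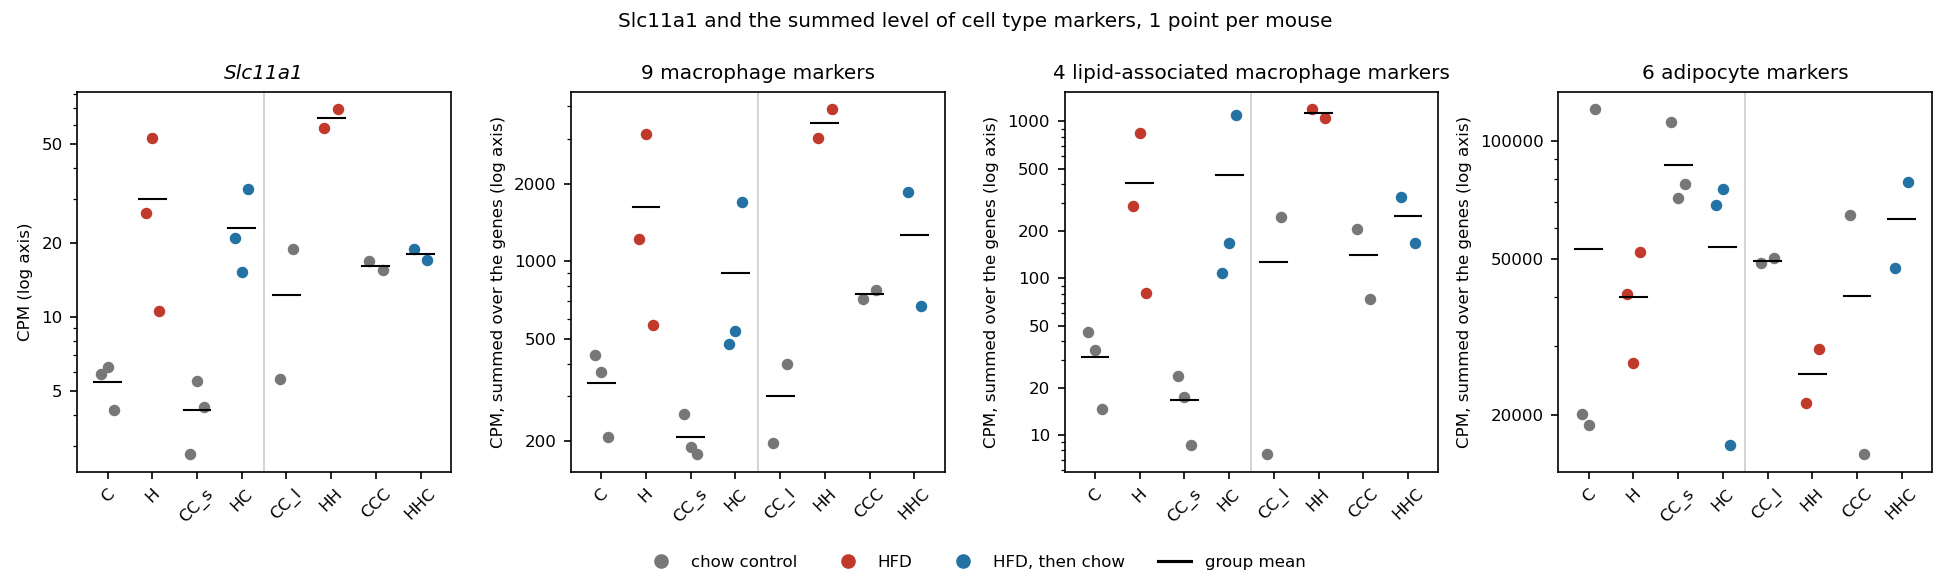
Slc11a1 (CPM, log axis) beside the summed CPM of 9 macrophage markers, 4 lipid-associated macrophage markers and 6 adipocyte markers (log axes), with 1 point per mouse and a line at each group mean. Lpl and Cd9 were left out of the lipid-associated macrophage sum. The 2 HH mice were highest for Slc11a1 (58.0 and 69.3 CPM in replicates 1 and 2). Their macrophage sums were 3014 and 3902 CPM in the same order, and H replicate 2 lay between them at 3113 CPM.

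Tfrc (chr16:32608920-32632794) stood at 77.8, 83.4 and 38.0 CPM in C and at 17.9, 22.2 and 20.3 CPM in H. The H mice lay close together and all below C replicate 3, the lowest control. Tfrc fell by 1.72 ± 0.55 on the log2 scale (BH-adjusted p = 0.116 in edgeR, range over 8 other settings 0.00259 to 0.246). The call was lost without C replicate 1 or 2 or any single H mouse, at -1.53 to -1.80, and was kept without C replicate 3, at -2.0. The C replicates with the highest Tfrc, 1 and 2, were those with the low adipocyte marker sums, and the part of that in the result was not tested.

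In HC, Tfrc was 15.2, 12.8 and 27.1 CPM against 59.0, 34.9 and 24.2 CPM in CC_s. HC replicate 3, a library with spermatid mRNA, overlapped the lowest CC_s mouse. The log2 fold change of -1.10 ± 0.55 did not pass (BH-adjusted p = 0.579 in edgeR), and it was -1.48 without the 2 libraries that hold spermatid mRNA. HH mice had 45.2 and 22.2 CPM and CC_l mice 20.8 and 46.8 CPM, so that both groups covered the same range. Tfrc differed by -0.0013 ± 0.66 (BH-adjusted p = 1.00 in edgeR) and turned positive with RLE scaling or DESeq2. HHC mice had 28.8 and 6.03 CPM and CCC mice 24.4 and 54.8 CPM, overlapping, at -1.19 ± 0.67 (BH-adjusted p = 0.550 in edgeR). Without HHC replicate 1 that comparison passed, at -2.72. The H and HC effects on Tfrc differed by -0.63 ± 0.76 and the HH and HHC effects by 1.19 ± 0.94, with BH-adjusted p = 0.842 and 0.565 in edgeR.

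Trf (chr9:103204001-103230444) encodes transferrin, the iron carrier of plasma. It stood at 396, 271 and 503 CPM in C and at 138, 263 and 164 CPM in H. The groups did not overlap, by a narrow margin between C replicate 2 and H replicate 2. Trf in H, at a log2 fold change of -1.05 ± 0.50, did not pass (BH-adjusted p = 0.295 in edgeR). In HC, HH and HHC the log2 fold changes were -0.38 ± 0.50, -0.38 ± 0.61 and 0.14 ± 0.61, with overlapping groups. In HHC the value rested on single mice, which had 143 and 535 CPM, the highest Trf of all libraries. Trf shares a locus with Gm20425 on the same strand, and 59.4% of its 50-base words are shared with other annotated transcripts. Gm20425 was listed at 0 in all libraries, and how reads in both genes were counted is not given in the sources used here.

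Steap4 (chr5:7960457-7982213), a metalloreductase that turns ferric into ferrous iron and copper, is induced in adipocytes by feeding and inflammation. It ranged from 159.5 to 550.4 CPM over the 20 mice, a ratio of 3.45 that was the smallest among the 9 genes. Its log2 fold change was -0.28 ± 0.41 in H, -0.57 ± 0.41 in HC, 0.65 ± 0.50 in HH and -0.54 ± 0.50 in HHC. The groups overlapped in each comparison, and the smallest nominal p was 0.179 (HC, edgeR quasi-likelihood test, BH-adjusted p = 0.696).

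The ferritin genes stood highest, and HH mice had the highest Ftl1 of the series. Ftl1 (chr7:45457944-45459884) encodes the light chain, which helps iron to crystallize inside the ferritin shell. It stood at 188, 1072 and 529 CPM in C and at 1941, 1947 and 958 CPM in H. H replicate 3 overlapped C replicate 2, and C replicate 1 was the lowest of all libraries. The log2 fold change of 1.44 ± 0.56 did not pass in edgeR (BH-adjusted p = 0.199). It passed the same cut-off with DESeq2 (1.33), with edgeR's likelihood ratio test (1.44) and without C replicate 2 (2.17). In HC, Ftl1 was 2475, 1096 and 1438 CPM against 1133, 978 and 1039 CPM in CC_s, with 1 overlapping mouse, at 0.67 ± 0.55 (BH-adjusted p = 0.752 in edgeR).

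HH mice had 3733 and 3456 CPM of Ftl1 and CC_l mice 1409 and 951 CPM. No other library reached the HH values. A log2 fold change of 1.61 ± 0.69 did not pass in edgeR (BH-adjusted p = 0.243) and did with DESeq2 (1.56). HHC mice were lower than CCC mice, at 983 and 946 CPM against 1874 and 1461 CPM, with a log2 fold change of -0.79 ± 0.68 (BH-adjusted p = 0.712 in edgeR). The difference between the HH and the HHC effect was 2.40 ± 0.97, the largest of the 9 genes, and did not pass after adjustment (BH-adjusted p = 0.244 in edgeR). Ftl1 shares 58.4% of its 50-base words with 17 other annotated genes, mostly pseudogenes. The summed level of the 15 of them in the table was at most 1.42% of the Ftl1 level in any library, and Ftl1 values are uncertain to the extent that reads fitting several copies were left out.

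Fth1 (chr19:9980598-9985098) encodes the heavy chain, which oxidizes ferrous iron before it enters the shell. It stood at 795, 1342 and 497 CPM in C and 1220.2, 1441 and 644 CPM in H. The 2 groups covered nearly the same range, at a log2 fold change of 0.33 ± 0.64. HC mice had 2779, 832 and 1037 CPM against 1146, 578 and 567 CPM in CC_s, at 1.02 ± 0.64, and at 0.29 without HC replicate 1. HH mice, with 2632 and 2447 CPM, were above the CC_l mice at 1095 and 1586 CPM, at 0.92 ± 0.79. HHC mice differed most from each other, with 482 and 2768 CPM around CCC values of 1246 and 923 CPM, and the log2 fold change of 0.58 ± 0.78 became -1.17 without HHC replicate 2. None of these passed (BH-adjusted p = 0.564 to 0.838 in edgeR). Over the 20 libraries, the log2 CPM of Slc11a1 correlated with that of Ftl1 (Pearson r = 0.67) and of Fth1 (0.59). The mouse highest in Fth1 had the highest macrophage marker sum of its group in H, CC_s and CC_l. It had the lowest in HC, HH, CCC and HHC, and neither in C. HC replicate 1 and HHC replicate 2, with the most Fth1 of all libraries, had macrophage sums of 477 and 672 CPM. The part of macrophage mRNA in the ferritin values was not tested.

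Per length, the ratio of Ftl1 to Fth1 was 3.498 to 4.12 in H and 0.613, 2.07 and 2.76 in C. It was 2.56 to 4.74 in CC_s and 2.31 to 3.59 in HC. The HH mice, at 3.67 and 3.66, were above the CC_l mice at 3.33 and 1.55, and the CCC mice were at 3.89 and 4.10. HHC replicate 2 had a ratio of 0.885 and HHC replicate 1 of 5.28, the highest of all. The ferritin chains therefore did not hold 1 ratio across mice. The H and HH mice, but not the HC and HHC mice, were all above their control group, in HH by a narrow margin. Among single tested genes, 23.9% in H and 55.3% in HH had groups that did not overlap. The ratio itself was not tested, and it carries the uncertainty of Ftl1 reads that fit several copies.

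Slc40a1 (chr1:45908068-45926523) encodes ferroportin, the only known exporter of ferrous iron. It stood at 10.8, 12.0 and 8.95 CPM in C and 7.75, 11.2 and 4.22 CPM in H, with overlapping groups and a log2 fold change of -0.45 ± 0.52. HC mice, with 14.5, 12.1 and 11.3 CPM, were all above the CC_s mice with 4.10, 9.66 and 7.35 CPM, at 0.84 ± 0.52 (BH-adjusted p = 0.634 in edgeR). HH mice had 11.1 and 17.6 CPM and CC_l mice 6.03 and 13.7 CPM, again overlapping, at 0.54 ± 0.63. The HHC mice were lower on average, with 3.86 and 12.2 CPM against 10.99 and 30.3 CPM in CCC. That log2 fold change was -1.36 ± 0.64 and did not pass (BH-adjusted p = 0.465 in edgeR). It was -0.46 without CCC replicate 2, which held the highest Slc40a1 of all libraries, and passed at -2.42 without HHC replicate 2. CCC replicate 2 was the library with the lowest adipocyte and the highest mesothelial marker sum, and 5 markers of adipocyte progenitors summed to 1916 CPM in it against 795 CPM in CCC replicate 1, whose part in the result was not tested. The HH and HHC effects on Slc40a1 differed by 1.90 ± 0.90 (BH-adjusted p = 0.321 in edgeR).

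Cp (chr3:19957054-20009145) encodes ceruloplasmin, a copper ferroxidase that loads exported iron onto transferrin. It ranged from 22.5 to 161 CPM over the 20 mice, and diet and control groups overlapped in all 4 comparisons. The log2 fold changes were -0.55 ± 0.51 in H, 0.31 ± 0.51 in HC, 0.29 ± 0.63 in HH and -1.01 ± 0.63 in HHC (BH-adjusted p = 0.586 to 0.896 in edgeR). The HHC value rested on CCC replicate 2 at 161 CPM, the library with the lowest adipocyte marker sum, and was 0.08 without it. Cp and Slc40a1, whose products act together in export, varied alike over the 20 libraries (Pearson r = 0.73 on log2 CPM, the highest among the 36 pairs of the 9 genes, in libraries that share depth and composition). Cp overlaps Hps3 on the opposite strand, which stood at 9.10 to 48.9 CPM, and without a stated strand setting reads of the overlap cannot be assigned.

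Hmox1 (chr8:75093621-75100589) encodes heme oxygenase 1, which cuts heme into biliverdin, carbon monoxide and iron and is induced by heme and oxidative stress. It stood at 10.2, 8.23 and 80.6 CPM in C and at 69.3, 87.5 and 50.8 CPM in H. C replicate 3 alone overlapped the H mice, and it was also the C library with the highest adipocyte marker sum. Hmox1 in H, at a log2 fold change of 1.07 ± 0.69, did not pass (BH-adjusted p = 0.451 in edgeR), and it was 2.90 and passed without C replicate 3. HC mice, with 28.9, 28.8 and 53.5 CPM, were all above the CC_s mice with 24.2, 21.5 and 19.1 CPM, at 0.78 ± 0.69 (BH-adjusted p = 0.773 in edgeR).

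In the long arm, HH mice had 43.0 and 76.8 CPM of Hmox1 and CC_l mice 21.7 and 14.9 CPM. The groups did not overlap, at a log2 fold change of 1.71 ± 0.86 (BH-adjusted p = 0.316 in edgeR). HHC mice had 83.2 and 20.6 CPM and CCC mice 27.3 and 10.9 CPM, with overlap, at 1.44 ± 0.86 (BH-adjusted p = 0.570 in edgeR), and at 0.10 without HHC replicate 1. The log2 fold change of Hmox1 was positive in all 4 comparisons, as were those of Slc11a1 and Fth1, and Hmox1 passed in H, HH and HHC when no filter on low counts was applied (1.20, 1.77 and 1.51). HHC replicate 1 was also the HHC mouse with the higher macrophage marker sum, 1858 CPM against 672 CPM. The mouse highest in Hmox1 likewise had the highest macrophage sum of its group in H, CC_s, HC and HH. In C, CC_l and CCC it had the lowest, which in C was replicate 3 at 207 CPM, against 434 and 371 CPM in replicates 1 and 2. Macrophages make heme oxygenase 1, and their part in these values was not tested.

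Diet and control groups did not overlap for 3 of the 9 genes in H (Slc11a1 higher, Tfrc and Trf lower), where this held for 23.9% of all tested genes. They did not overlap for 3 in HC (Slc11a1, Slc40a1 and Hmox1 higher; all tested genes 13.8%) and for 4 in HH (Slc11a1, Fth1, Ftl1 and Hmox1 higher; all tested genes 55.3%). In HHC this held for 2 (Slc11a1 higher, Ftl1 lower; all tested genes 28.8%). Chow groups of different age also differed in their chow, so that age and chow cannot be told apart. Between them, 0 of 9 genes were called in CC_s against C (0.592% of all tested genes up, 1.85% down) or in CCC against CC_l (0.755% up, 1.91% down). At a nominal p under 0.05 there were 1 and 0 genes in edgeR, and DESeq2 called 0 in both. No gene of the 9 had an effect that differed between H and HC (0 of 9, all tested genes 0.0%) or between HH and HHC (0 of 9, all tested genes 0.815%) at an adjusted p under 0.05 in edgeR or DESeq2. At a nominal p under 0.05 in edgeR, these were 0 and 3 genes, the latter being Ftl1, Slc11a1 and Slc40a1.

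The genes with the most similar log2 CPM pattern over the 20 libraries, as a description, were Golga1 for Tfrc (Pearson r = 0.90), Hcar1 for Trf (0.86) and Lgr4 for Steap4 (0.90). For the ferritins they were Gm5560 for Fth1 (0.91) and the pseudogene Ftl1-ps1 for Ftl1 (0.92), whose reads may be those of Ftl1. They were Pgm3 for Slc40a1 (0.86), Has2os for Cp (0.89) and Gngt2 for Hmox1 (0.88).

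A wider list of iron and heme genes, of which 76 were tested with the 9 included, was examined for the rest of the pathway. Hamp, Hamp2 and Erfe, the hepcidin genes and erythroferrone, were too low to test. In H, 8 of the 76 were called up and 2 down. In HC, 1 was called up and 0 down. In HH, 6 were called up and 1 down, and in HHC 0 up (1 with DESeq2) and 3 down, against the shares over all tested genes given above. The median log2 fold change of the 76 genes was -0.13 in H, 0.21 in HC, 0.26 in HH and -0.10 in HHC, near that of all tested genes in 3 comparisons and above it in HH (-0.23).

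**Figure D4:**
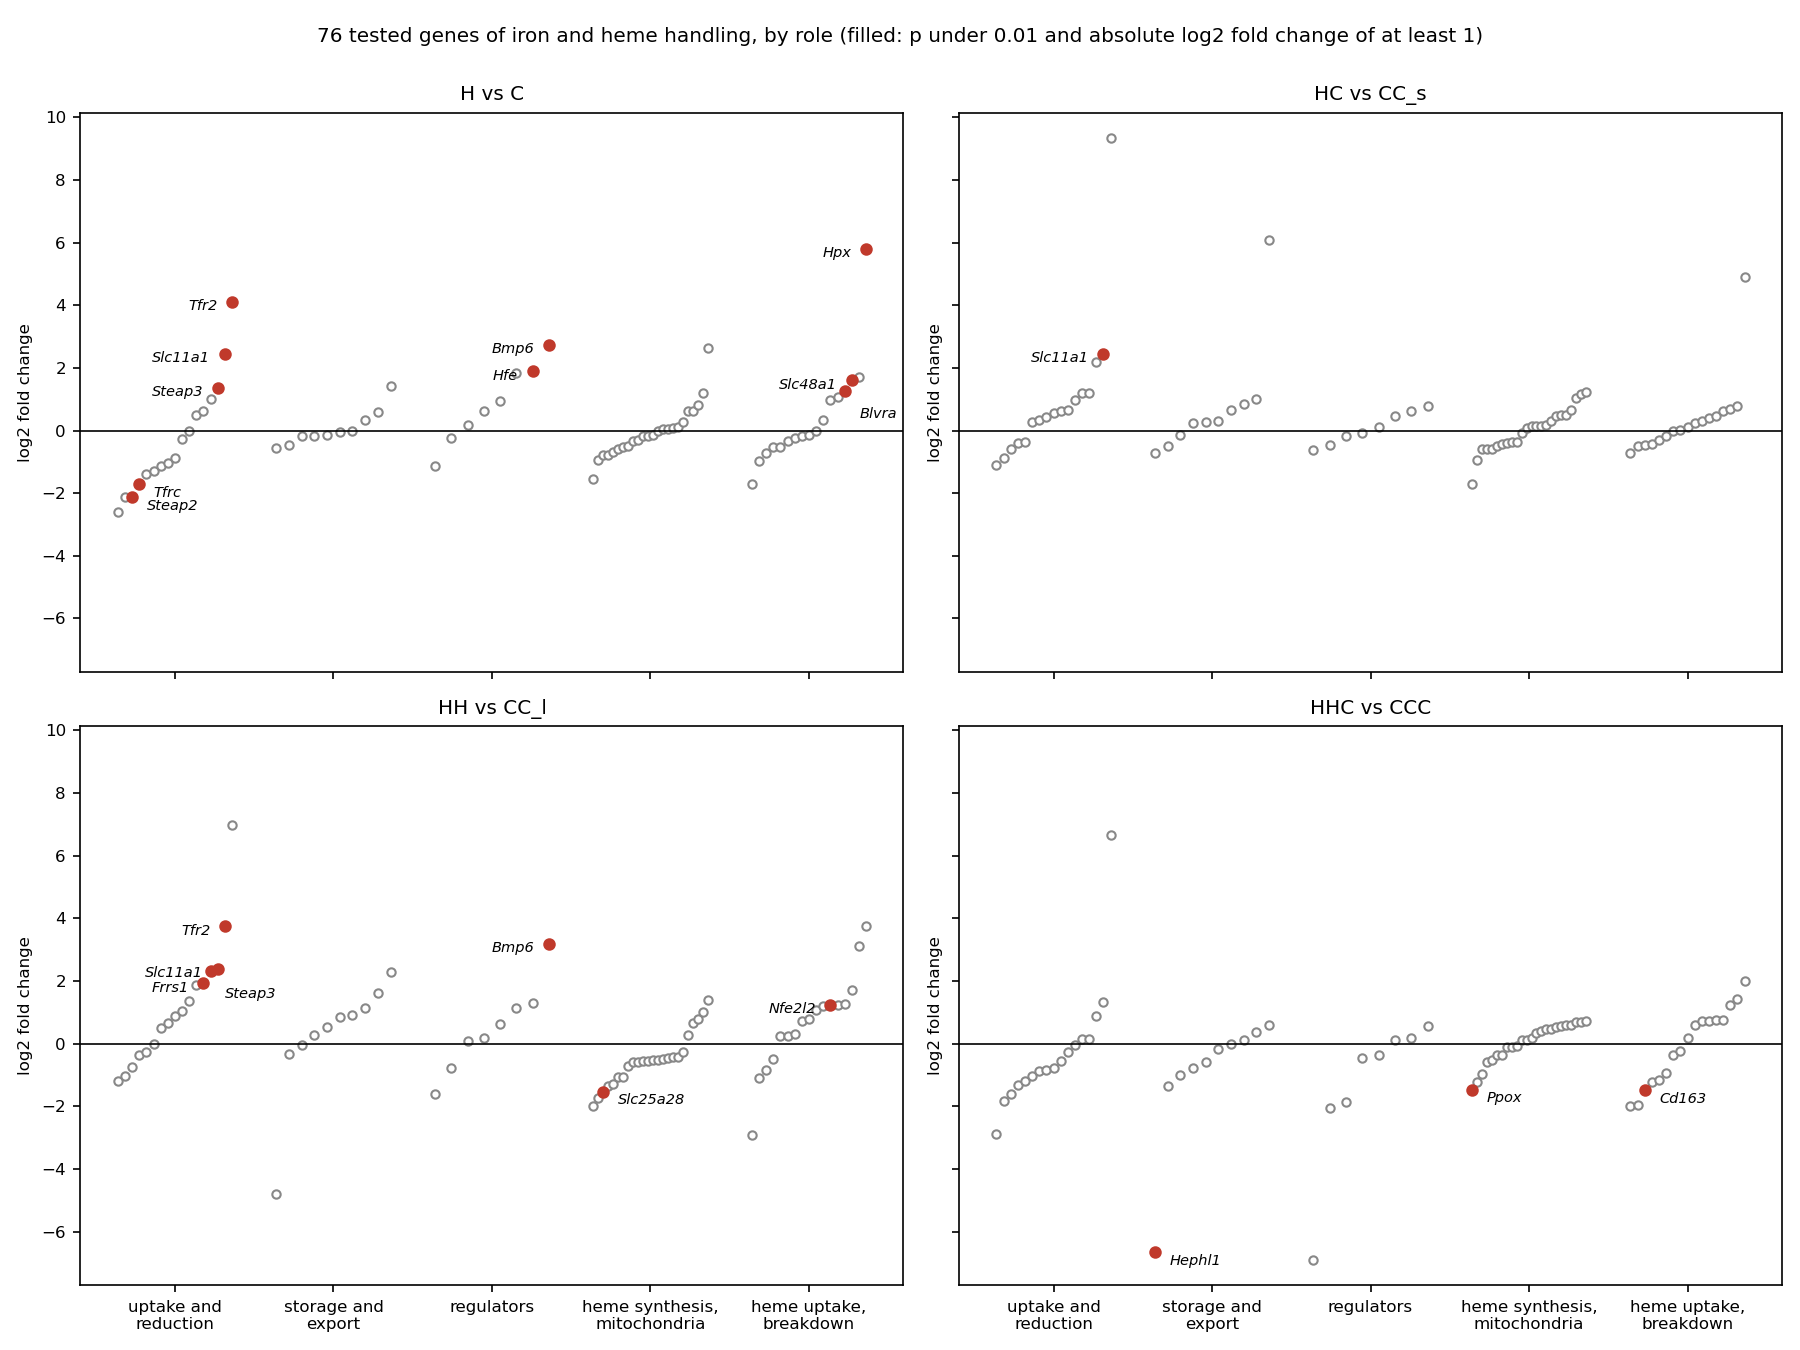
Log2 fold change of the 76 tested iron and heme genes in each comparison, sorted within 5 groups of roles. Named red points passed the call rule, with 10 in H, 7 in HH, 3 in HHC and 1 in HC. Open points, also those far from 0, did not pass.

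Of 17 genes of uptake and reduction, 3 were called up and 2 down in H, 1 up in HC (Slc11a1), 4 up in HH and 0 in HHC (1 at a nominal p under 0.05 in edgeR), beside the shares over all tested genes given above. Tfr2, a second transferrin receptor known from liver and red cell precursors, stood at 0.435, 0.694 and 0.627 CPM in C and 8.36, 17.3 and 4.60 CPM in H. It rose by 4.09 ± 0.90 on the log2 scale (BH-adjusted p = 0.0258 in edgeR), whichever mouse was left out. In HC its values were 6.87, 6.10 and 2.38 CPM, above all CC_s mice at up to 1.64 CPM, and 2.202 ± 0.83 did not pass (BH-adjusted p = 0.541 in edgeR). It passed the same cut-off in HC with DESeq2, the likelihood ratio test, no filter on low counts and without both libraries that held spermatid mRNA. Tfr2 passed again in HH, at 6.84 and 19.5 CPM against 1.52 and 0.393 CPM (3.74 ± 1.08, BH-adjusted p = 0.0804 in edgeR), but not without CC_l replicate 2 or HH replicate 2. Neutrophil marker sums were 160, 232 and 53.3 CPM in H and 48.1, 35.7 and 7.33 CPM in HC. In HH they were 14.4 and 116 CPM, against 24.8 and 43.2 CPM in CC_l. Macrophage marker sums were 1222, 3113 and 565 CPM in H and 477, 536 and 1701 CPM in HC. Sums of 6 erythrocyte markers were 948 to 1551 CPM in C and 1523 to 2315 CPM in H. They were 1505 and 706 CPM in CC_l and 4416 and 1379 CPM in HH, overlapping, with 0 of the 6 called in any comparison. The part of other cell types in the Tfr2 values was not tested.

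Steap3, the endosomal reductase of transferrin iron, was 10.2, 10.3 and 7.16 CPM in C and 25.1, 31.7 and 13.8 CPM in H. It rose by 1.35 ± 0.37 in H (BH-adjusted p = 0.0695 in edgeR, call lost without H replicate 2 or C replicate 3) and by 2.33 ± 0.47 in HH (BH-adjusted p = 0.0253 in edgeR, kept whichever mouse was left out). HH mice had 52.8 and 47.0 CPM of it and CC_l mice 7.86 and 12.0 CPM. Steap2, of the same family, fell by 2.13 ± 0.58 in H (BH-adjusted p = 0.0657 in edgeR), from 26.1, 31.1 and 7.52 CPM to 4.33, 7.55 and 2.88 CPM, with 1 overlapping mouse and no call without C replicate 2 or H replicate 3. Frrs1, a ferric reductase, rose by 1.93 ± 0.58 in HH (BH-adjusted p = 0.0976 in edgeR), and only without CC_l replicate 2 was that call kept. Transferrin receptor, ferric reductases and Slc11a1 thus did not move as 1 group in H, where Tfrc and Steap2 were lower while Tfr2, Steap3 and Slc11a1 were higher. The part of macrophages and other cell types in the values of these reductases was not tested.

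Among regulators, Hfe, which binds the transferrin receptor, was 25.7, 24.7 and 75.5 CPM in C and 145, 210 and 112 CPM in H. It rose by 1.89 ± 0.52 in H (BH-adjusted p = 0.0667 in edgeR), a call lost without C replicate 2 or H replicate 2. The part of other cell types in the Hfe values was not tested. Bmp6, the signal by which endothelial cells of the liver raise hepcidin, was 0.871, 2.08 and 2.01 CPM in C and 9.27, 11.4 and 12.4 CPM in H. It rose by 2.73 ± 0.62 in H (BH-adjusted p = 0.0303 in edgeR), whichever mouse was left out. In HH it rose by 3.18 ± 0.77 (BH-adjusted p = 0.0415 in edgeR, 26.9 and 10.8 CPM against 2.44 and 1.70 CPM), a call lost without HH replicate 1 or CC_l replicate 2.

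Endothelial markers moved with Bmp6. Their sum over 4 genes was 185 to 468 CPM in C and 972 to 1363 CPM in H, with 3 of 4 called up, and 109 and 122 CPM in CC_l against 594 and 1050 CPM in HH, with 4 of 4 called up. In HC, 0 of 4 were called, and in HHC 1 was called down. The part of endothelial mRNA in the Bmp6 values was not tested. Bmp6 also overlaps Txndc5 and 4930579J19Rik on the opposite strand.

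For heme, 17 genes of uptake, breakdown and transport were tested. In HC 0 were called, in HH 1 up and in HHC 1 down, beside the shares over all tested genes given above. In H, 3 were called up and 0 down, where 3.57% of all tested genes were called up and 2.92% down. Hpx, hemopexin, the plasma protein that binds free heme, was 3.65, 14.3 and 0.288 CPM in H and at most 0.218 CPM in C, where it had 6 counts in all. The ratio of summed counts was 76.1 (95% exact interval 34.8 to 208, counting error only), most of it from H replicate 2, and the edgeR call was lost without that mouse or any single C mouse. The others were Slc48a1, a transporter that moves heme out of lysosomes (1.60 ± 0.52, BH-adjusted p = 0.123 in edgeR, overlapping Hdac7 on the opposite strand), and Blvra, biliverdin reductase (1.27 ± 0.42, BH-adjusted p = 0.125 in edgeR), both named after their values were seen. The call of Slc48a1 was lost without C replicate 1 or 2 or H replicate 1 or 3, and that of Blvra without any single mouse but C replicate 3.

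Of 24 genes of heme synthesis and mitochondrial iron, 0 were called in H and HC by edgeR, with 4 and 0 at a nominal p under 0.05, and DESeq2 called 1 in H (Alad) and 0 in HC. In HH and in HHC, 0 were called up and 1 down, beside the shares over all tested genes given above. Slc25a28, mitoferrin 2, which carries iron into mitochondria, fell by 1.54 ± 0.37 on the log2 scale in HH (BH-adjusted p = 0.0418 in edgeR), with 14.5 and 19.9 CPM against 41.6 and 58.4 CPM in CC_l and a call lost without HH replicate 1 or CC_l replicate 2. It was 39.6 and 44.2 CPM in HHC and 49.4 and 40.7 CPM in CCC, with overlapping groups. In HH, 5 of the 24 genes had a positive log2 fold change, with a median of -0.54 (all tested genes -0.23). Adipocyte marker sums were 21460 and 29507 CPM in HH and 48969 and 50189 CPM in CC_l, and their part in these values was not tested. In the same comparison Nfe2l2, a transcription factor of the response to oxidative stress, rose by 1.23 ± 0.37 (BH-adjusted p = 0.0907 in edgeR, call lost without HH replicate 1 or either CC_l mouse, named after its values were seen), and it was also called between chow groups, in CCC against CC_l (1.39 ± 0.37, BH-adjusted p = 0.317 in edgeR). Those chow groups differed in age and in chow.

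Of 10 storage and export genes, 0 were called in H, HC and HH by edgeR, with 1, 0 and 1 at a nominal p under 0.05. The shares over all tested genes are given above. In HHC, the 3 calls of the wider list were Hephl1, Ppox and Cd163. Hephl1, a ferroxidase related to ceruloplasmin, had 2 counts in HHC, at 0.168 and 0 CPM, against 3.46 and 12.3 CPM in CCC. The ratio of summed counts, CCC over HHC, was 123 (95% exact interval 33.7 to 1021, counting error only), and the edgeR call was lost without HHC replicate 2. Ppox, an enzyme of heme synthesis, fell by 1.48 ± 0.46 on the log2 scale (BH-adjusted p = 0.276 in edgeR), from 15.6 and 29.96 CPM to 11.9 and 4.52 CPM. Cd163, the macrophage receptor for hemoglobin bound to haptoglobin, fell by 1.49 ± 0.50 (BH-adjusted p = 0.308 in edgeR), from 27.1 and 71.4 CPM to 20.5 and 14.7 CPM. Both lost their call without CCC replicate 2 or HHC replicate 2, and Cd163 also without HHC replicate 1. The part of the low adipocyte and high mesothelial and progenitor marker sums of CCC replicate 2 in these values was not tested. Ppox overlaps B4galt3 on the opposite strand.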

How the data were processed

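Ribosome-bound mRNA was pulled down from frozen epiAT, each library coming from 1 mouse, and amplified with oligo-dT priming and template switching. The deposited table holds raw read counts per Ensembl gene that the authors made with FastQC 0.11.9, Trim Galore 0.6.6, HISAT2 2.2.1 on mm10 and featureCounts of Subread 2.0.1. Annotation release, strand setting and handling of read pairs and of multimapping reads are not given in the sources used here. In each library 74.4% to 89.2% of nonzero counts were even, so counts halved and rounded were 1 alternative.

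Gene symbols, positions and UTRs came from GENCODE vM21 (GRCm38), which named 45229 of the 46078 identifiers. Counts were filtered with filterByExpr, scaled by TMM (factors 0.766 to 1.33) and tested with edgeR 4.0.16 (glmQLFit and glmQLFTest, R 4.3.3) over all 20 libraries in 8 groups, without covariates. The common biological coefficient of variation was 0.680. Library depth limited low genes only, as 3 counts stood at no more than 0.251 CPM. Interaction contrasts were called at an adjusted p under 0.05. No 2 libraries of a group agreed within sampling noise (chi-square per degree of freedom 41.7 to 731).

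On counts simulated for the 21464 genes in H against C, 48 of 100 genes changed by a log2 of 2 and 68 of 100 changed by 3 were recovered, 0 with the wrong sign, and 0.809% of unchanged genes were called. The alternatives were DESeq2 1.42.0, RLE scaling, no filter, only the compared groups, the likelihood ratio test, a replicate block, an adjusted p under 0.05 as threshold, halved counts and each mouse left out. The fit without CC_l replicate 1 and HC replicate 3 together was added after the data were seen. Of the wider list, at most the 6 called genes with the largest absolute log2 fold change in each comparison were to be named. The 9 genes, the gene lists and the tests were chosen with earlier results of these data known. Exact intervals of count ratios cover counting error only.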

Additional observations from a re-analysis of the deposited data

Results flagged for a closer look

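The HH effect and the HHC effect, each taken against its own chow control, differed for 2 genes of the wider iron and heme list by the interaction test. For Steap3 the difference of the log2 fold changes was 3.18 ± 0.65 (SE; BH-adjusted p = 0.0355 in edgeR's quasi-likelihood test over all genes). Steap3 stood at 52.8 and 47.0 CPM in HH against 7.86 and 12.0 CPM in CC_l, and at 11.6 and 12.9 CPM in HHC against 17.8 and 26.3 CPM in CCC. Both HH mice were above their controls and both HHC mice below theirs, and the HHC effect alone, -0.85, was not called. With 1 mouse left out the difference was 2.89 to 3.55, and its adjusted p stayed under 0.05 in 1 of the 8 fits, the one without CCC replicate 1. For Bmp6 the difference was 5.04 ± 1.07 (BH-adjusted p = 0.0376 in edgeR's quasi-likelihood test). Bmp6 stood at 26.9 and 10.8 CPM in HH against 2.44 and 1.70 CPM in CC_l, and at 1.51 and 1.08 CPM in HHC against 2.57 and 6.80 CPM in CCC. The HHC effect alone, -1.86, was not called. With 1 mouse left out the difference was 4.20 to 5.60, with an adjusted p under 0.05 only without HH replicate 2 or CCC replicate 1. Both differences stayed under 0.05 with DESeq2 and the likelihood ratio test. Both missed it with RLE scaling, with a replicate block and without the 2 libraries that held spermatid mRNA. The 4 endothelial markers summed to 66.7 and 72.6 CPM in HHC and 173 and 369 CPM in CCC, and their part in the Bmp6 values was not tested.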

How the results depend on the processing

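The call of Slc11a1 in H was kept under every alternative listed in the processing, each mouse left out included, and in HC under every one but the adjusted p threshold. In HH it was lost under that threshold, without CC_l replicate 1 and without both libraries that held spermatid mRNA. Of the values of single genes with 1 mouse left out, 374 kept direction and call, 44 lost a call, 4 gained one and 22 changed sign, and under the other settings these were 521, 33, 6 and 9. The limits are the 2 or 3 mice per group, the common biological coefficient of variation of 0.680, the unknown strand and pair handling of the counts, and spermatid mRNA in CC_l replicate 1 and HC replicate 3. The causes of the changes below were not tested, apart from stricter thresholds and fewer samples.

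Among the 9 genes in H, DESeq2, no filter and the likelihood ratio test each called 2 up. Under an adjusted p threshold, 0 were down. In HC, 0 were up with the adjusted p threshold. In HH, 2 were up with DESeq2 and with no filter, and 0 with the adjusted p threshold or without both libraries that held spermatid mRNA. In HHC, 1 was up with no filter. In CC_s against C, 1 was called with no filter. The log2 fold change of Tfrc in HH turned from -0.0013 to 0.019 with DESeq2 and with RLE scaling, to 0.12 with no filter and to 0.15 with only the compared groups. That of Cp in HH became -0.18 without both spermatid libraries. The difference between the H and HC effects on Slc11a1 became -0.14 with DESeq2 and -0.13 with RLE scaling.

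In the wider list of 76, 4 genes were up in H with only the compared groups and 3 with the adjusted p threshold, and 4 were down with no filter and 0 with the adjusted p threshold. In HC, 3 were up with DESeq2, with the likelihood ratio test and without the spermatid libraries, 8 with no filter and 0 with the adjusted p threshold, and 1 was down with no filter. In HH, 10 were up with DESeq2 and with only the compared groups, 2 with the adjusted p threshold and 3 without the spermatid libraries. There, 4 were down with DESeq2 and with only the compared groups, 3 with no filter, and 2 with RLE scaling, the likelihood ratio test, halved counts or without the spermatid libraries. In HHC, 1 was up with DESeq2 and with RLE scaling and 2 with no filter, while 1 was down with only the compared groups and 0 with the adjusted p threshold.

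With 1 mouse left out, the 9 genes gave 1 to 2 up and 0 to 1 down in H, 0 to 1 up in HH and 0 to 1 down in HHC. The wider list gave 4 to 8 up and 0 to 5 down in H, 1 to 2 up in HC, 3 to 5 up and 0 to 2 down in HH, and 0 to 1 up and 1 to 5 down in HHC. Log2 fold changes that changed sign ran from -0.0042 to 0.84 (Cp) and -0.65 to 0.12 (Trf) in HC, and from -0.59 to 0.73 (Tfrc) and -0.18 to 1.03 (Cp) in HH. In HHC they ran from -1.17 to 1.35 (Fth1), -1.63 to 0.077 (Cp) and -1.11 to 0.79 (Trf). The H effect minus the HC effect ran from -1.11 to 0.037 (Fth1), -0.17 to 2.13 (Hmox1) and -0.69 to 0.42 (Slc11a1). The HH effect minus the HHC effect ran from -0.41 to 2.11 (Fth1), -0.52 to 1.63 (Hmox1) and -1.15 to 0.75 (Trf).

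The groups share replicate numbers, but deviations of same-numbered mice correlated at -0.167 to 0.192 in H and C, -0.277 to 0.059 in HC and CC_s, -0.193 in HH and CC_l and -0.260 in HHC and CCC, so the numbers were taken as names only. With a replicate block, 0 of the 9 genes were down in H, 5 of the wider list were up and 1 down in H, and 1 was down in HHC. The block gave -0.026 for Trf in HHC and -0.19 for the difference between the H and HC effects on Slc11a1.

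The median log2 fold change of all genes, -0.15, 0.27, -0.23 and -0.06 in H, HC, HH and HHC, was -0.23, 0.28, -0.24 and 0.00 with RLE scaling. No filter, only the compared groups and the adjusted p threshold were not run for the differences between effects.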
